A study of Mus musculus with 16 samples.

Results

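A set of 9 genes of vascular mural cells was followed through 16 RNA-seq libraries of sorted mouse muscle cells. They were chosen by symbol: Myh11, Acta2, Tagln and Cnn1, which encode contractile proteins of smooth muscle, and Rgs5, Pdgfrb, Cspg4, Abcc9 and Kcnj8, which are widely used markers of pericytes. All 9 were listed among the 24341 genes, and all 9 were among the 12954 genes that reached 1 FPKM in at least 2 libraries and were tested. FPKM is a fragment count divided by transcript length and by the library total of mapped fragments, so levels can be compared between genes per length. The libraries fall into 6 groups of C57BL/6 mice aged 2 to 3 months. Each genotype, p53WT or p53KO, has 3 libraries with no suffix, from hind limb muscles, 3 with the suffix 3dai, from the Tibialis Anterior, and 2 with the suffix G2, again from hind limb muscles. By its title the series concerns muscle stem cells and rhabdomyosarcoma in a severe mouse model of Duchenne muscular dystrophy, but the sample labels give no dystrophin genotype. The labels spell out neither suffix, nor the p53 allele, nor the promoter or cell type in which it was deleted. In all 6 groups the muscle was dissociated enzymatically and flow cytometry kept cells bearing CD34 together with alpha-7 integrin, while cells with CD31, CD45, CD11b or Sca-1 were gated away. Because 3dai also differs from the other suffixes in the muscle taken, suffix and muscle cannot be told apart in any comparison with 3dai. The replicates are not said to come from separate mice, so the p-values measure only the spread between these libraries, which may be technical.

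Mural cells wrap the endothelial tube: smooth muscle cells contract around arteries and veins, while pericytes sit on capillaries and share a basement membrane with the endothelium. Endothelial PDGF-B acting on the receptor PDGFRB recruits pericytes, and the transcription factor SRF with its cofactor myocardin drives many contractile genes of smooth muscle through a DNA element called the CArG box. Skeletal muscle is densely supplied with small vessels, and none of these genes is a defining marker of the muscle stem cell that the CD34 and alpha-7 integrin gate is used to collect.

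As a check of the labels, Trp53, the targeted gene, was at 39.9 to 53.9 FPKM in p53WT and 6.34 to 12.2 in p53KO. In 3dai it was at 133.6 to 160.8 against 34.9 to 45.7, and in G2 at 59.9 to 71.0 against 16.7 to 19.8, so the genotypes separated in every pair of groups. Itga7, which encodes the alpha-7 integrin of the gate, was present in every library, with group means from 85.7 FPKM in p53KO to 273 in p53WT_G2. Pecam1, which encodes the excluded CD31, was listed at 0 in all 6 libraries of 3dai and had group means of 0.288 to 0.950 elsewhere. Summed FPKM over all genes ran from 423303 to 616485 per library, and 10240 to 11574 genes reached 1 FPKM. The files give no read totals, so depth is unknown and no counting error can be attached to a value. Of the 16 libraries, p53WT replicate 2, p53KO replicate 1, p53KO_3dai replicate 1 and p53KO_G2 replicate 1 stood apart for several of the 9 genes, and values without them stand beside the results they move most.

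The contractile genes lie apart in the genome (mm10, positions from the GENCODE vM21 annotation). Myh11, the smooth muscle myosin heavy chain, lies at chr16:14194535-14291372. Acta2, the smooth muscle alpha-actin, lies at chr19:34241090-34255590. Tagln, which encodes the actin-binding protein SM22, lies at chr9:45929619-45936058 and overlaps Pcsk7. Cnn1, which encodes calponin, lies at chr9:22099216-22109630. The deposited loci of Tagln and Cnn1 are wider than the genes, at 72368 and 333747 bases, and also span 3 and 11 other coding genes, so reads there may have been divided between genes and these 2 genes' values carry that uncertainty. Acta2 has close paralogs among the actins, and reads in their shared coding sequence could also be divided.

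Promoters are shown for Acta2 and Cnn1 beside those of a paralog of each, Actc1 (cardiac alpha-actin) and Cnn2 (another calponin). These pairs were chosen because they differed in how they moved between groups. By the tests below, Cnn2 was not called in 3dai against no suffix, where Cnn1 was called lower. Cnn3, also a calponin paralog, was called lower there in both genotypes and is not shown. RefSeq windows (GRCm38.p6) of 300 bases, from 250 before to 50 after the RefSeq gene start, were matched by symbol for 6 of the 9 genes. They are printed 5′ to 3′ on the gene's strand. Capitals mark a CArG box with at most 1 mismatch: CC, then 6 bases that are each A or T save at most 1, then GG. The exact element reads the same on both strands.
Acta2, chr19:34255324-34255623, minus strand: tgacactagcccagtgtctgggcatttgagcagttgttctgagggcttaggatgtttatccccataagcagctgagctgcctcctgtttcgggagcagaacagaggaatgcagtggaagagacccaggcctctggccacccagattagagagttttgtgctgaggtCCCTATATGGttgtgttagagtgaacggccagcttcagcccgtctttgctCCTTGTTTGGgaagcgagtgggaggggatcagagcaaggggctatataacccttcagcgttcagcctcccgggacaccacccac
Actc1, chr2:114052826-114053125, minus strand: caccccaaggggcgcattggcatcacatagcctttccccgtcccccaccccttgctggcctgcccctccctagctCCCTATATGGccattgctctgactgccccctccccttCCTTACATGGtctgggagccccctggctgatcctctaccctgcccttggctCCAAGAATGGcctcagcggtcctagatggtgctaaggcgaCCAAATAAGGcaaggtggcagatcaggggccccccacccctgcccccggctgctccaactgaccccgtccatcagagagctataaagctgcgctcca
Cnn1, chr9:22099003-22099302, plus strand: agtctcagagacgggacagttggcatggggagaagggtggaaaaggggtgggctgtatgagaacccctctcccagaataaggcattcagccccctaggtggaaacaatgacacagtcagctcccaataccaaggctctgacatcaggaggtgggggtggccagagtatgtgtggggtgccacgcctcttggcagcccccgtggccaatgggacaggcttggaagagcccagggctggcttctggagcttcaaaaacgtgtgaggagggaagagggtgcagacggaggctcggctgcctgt
Cnn2, chr10:79988350-79988649, plus strand: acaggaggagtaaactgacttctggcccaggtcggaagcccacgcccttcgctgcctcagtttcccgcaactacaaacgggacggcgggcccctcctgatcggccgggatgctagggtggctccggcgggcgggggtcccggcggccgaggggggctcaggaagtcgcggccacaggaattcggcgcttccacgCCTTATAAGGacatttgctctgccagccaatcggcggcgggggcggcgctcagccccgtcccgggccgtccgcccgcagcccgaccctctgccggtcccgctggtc
The exact CArG box was found in 0 of the 6 windows and in 1.63% of all 32851 windows. Of the 10 windows matched for paralogs, 4 held it (Acta1, Actc1, Actg1 and Cnn2). No window was matched for Myh11, Tagln or Pdgfrb, so among the contractile genes the search covered only Acta2 and Cnn1. With 1 mismatch allowed, a choice made after the exact search was seen, 9.98% of all windows held a match. Among the 9 genes' 6 windows only that of Acta2 did, at CCCTATATGG and CCTTGTTTGG, which begin 84 and 34 bases before the RefSeq start. The GENCODE gene given above reaches further upstream, to 34255590, so both matches lie inside its span and their distance depends on the start used. Cnn1, Rgs5, Cspg4, Abcc9 and Kcnj8 had no match in these windows. These matches describe the letters only, since no binding was measured.

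The largest pattern in these genes was their fall in 3dai. Against no suffix, 9 of 9 were called lower with p53WT (limma on log2(FPKM + 1), Benjamini-Hochberg adjusted p under 0.05), where 20.9% of all genes tested were called lower, and 9 of 9 with p53KO, where 22.7% were. The median log2 difference of the 9 was -3.19 in either genotype, against 0.23 and 0.14 over all genes. It was -4.69 and -4.11 for the 4 contractile genes and -2.87 and -2.52 for the 5 pericyte genes. All 6 libraries of 3dai lay below all 10 others for 9 of 9 genes, a pattern that 10.9% of the genes tested had. Scaling by median of ratios moved the median of all genes by -0.29 with p53WT and -0.23 with p53KO, which is small beside these differences, and left 9 of 9 called lower. In sorted bulk samples, fewer cells of a type and less RNA per cell cannot be told apart.

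All 4 contractile genes were far lower in 3dai than without a suffix or in G2. Myh11 stood at 61.5, 201 and 81.9 FPKM in p53WT, 71.2, 69.4 and 69.5 in p53KO, 86.7 and 97.3 in p53WT_G2, and 23.2 and 95.4 in p53KO_G2. In 3dai it stood at 0.308, 0.407 and 0.0650 in p53WT_3dai and at 0.970, 0 and 0 in p53KO_3dai. The 6 libraries of 3dai lay below the other 10 with no overlap, p53WT replicate 2 stood far above the rest, and p53KO_G2 replicate 1 was the lowest outside 3dai. On the log2(FPKM + 1) scale Myh11 fell by 6.34 (SE 0.46, limma adjusted p = 3.73e-08) in 3dai against no suffix with p53WT and by 5.82 (SE 0.46, limma adjusted p = 8.48e-08) with p53KO. Ranked from the most negative difference among the 12954 genes, it stood 14th with p53WT and 31st with p53KO.

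Acta2 had the highest level of the 9 genes in every library of 3dai. It stood at 151, 576 and 169 FPKM in p53WT, 198, 167 and 208 in p53KO, 358 and 410.5 in p53WT_G2, and 249.6 and 365 in p53KO_G2. The libraries of 3dai read 17.8, 12.2 and 33.8 with p53WT and 31.3, 15.5 and 13.4 with p53KO. None was at 0, and the 3dai and other libraries did not overlap. The ratio of group means was 14.1 with p53WT and 9.53 with p53KO, and the log2 differences were -3.59 (SE 0.45, limma adjusted p = 8.62e-06) and -3.28 (SE 0.45, limma adjusted p = 2.04e-05). The 4 libraries of G2 all lay above 5 of the 6 without a suffix, and below p53WT replicate 2.

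Tagln was the most abundant of the 9 genes without a suffix, at 245, 791 and 221 FPKM in p53WT and 298, 215 and 218 in p53KO. In G2 it stood at 281 and 306 with p53WT and at 148 and 259 with p53KO, and in 3dai at 3.34, 4.70 and 9.06 and at 11.0, 5.13 and 5.58. Group means were 73.5 times higher without a suffix than in 3dai for p53WT and 33.7 times for p53KO, with log2 differences of -5.80 (SE 0.43, limma adjusted p = 4.42e-08) and -4.95 (SE 0.43, limma adjusted p = 2.15e-07). Tagln and Acta2 thus changed places. Without a suffix the Tagln to Acta2 ratio of FPKM ran from 1.05 to 1.62, in G2 from 0.593 to 0.786 and in 3dai from 0.188 to 0.417, with no overlap between the 3 suffixes. Acta2 made up 32.8 to 41.4% of the summed FPKM of the 4 genes without a suffix, 48.7 to 58.4% in G2 and 68.3 to 83.0% in 3dai.

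**Figure D1:**
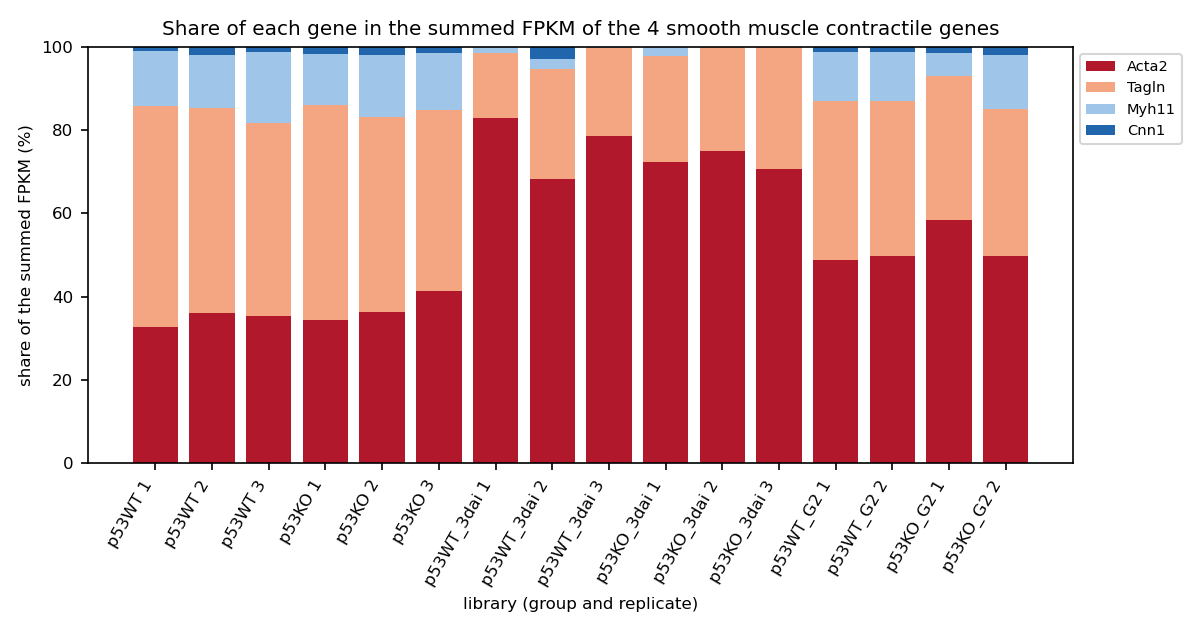
Stacked bars give the share (%) of Acta2, Tagln, Myh11 and Cnn1 in the summed FPKM of these 4 genes, 1 bar for each of the 16 libraries. The Acta2 share is lowest without a suffix (32.8 to 41.4%), intermediate in G2 and highest in 3dai (68.3 to 83.0%), where Myh11 and Cnn1 hold thin slices or none.

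Cnn1 was far lower than the other contractile genes in every library outside 3dai. It stood at 4.48, 31.4 and 5.55 FPKM in p53WT, 9.34, 8.33 and 6.84 in p53KO, 8.89 and 9.10 in p53WT_G2, and 6.58 and 14.5 in p53KO_G2. Of the 6 libraries of 3dai, 5 were listed at 0 and p53WT_3dai replicate 2 at 0.532, so the groups did not overlap. The log2 difference was -3.19 for either genotype (SE 0.51, limma adjusted p = 9.56e-05 with p53WT and 9.41e-05 with p53KO). Because this gene was at 0 in most of 3dai, its difference depends on the pseudocount: with 0.1 in place of 1 it was -5.66 and -6.36.

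**Figure D2:**
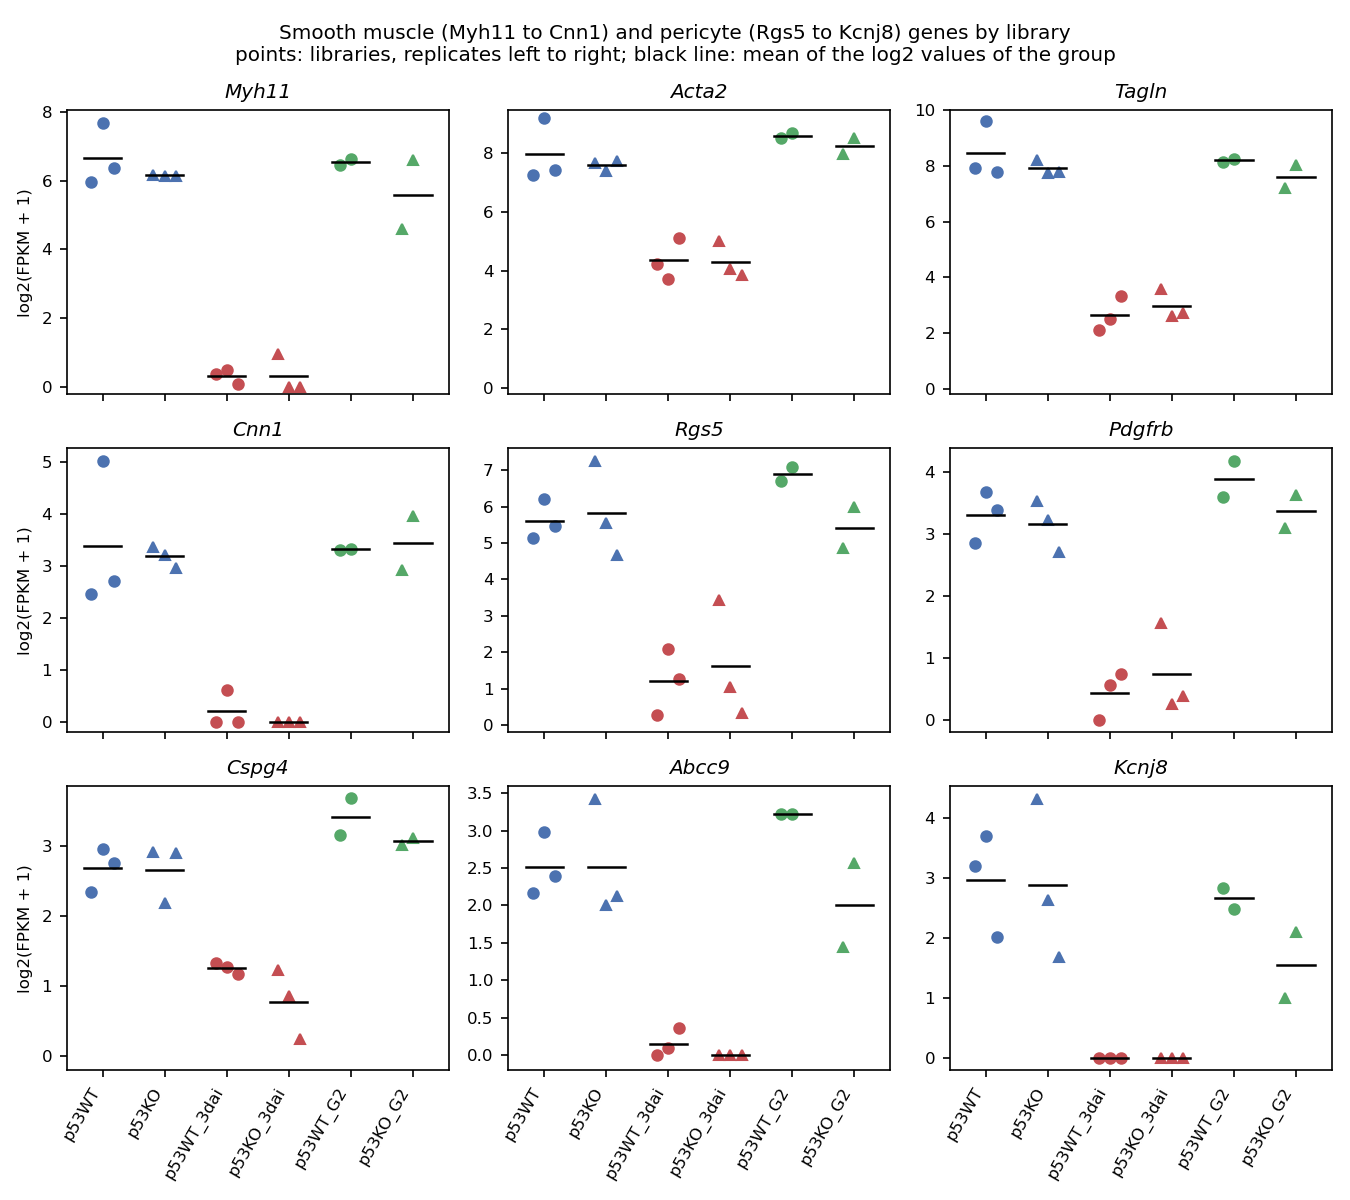
Each panel shows 1 gene, with log2(FPKM + 1) on the vertical axis and the 6 groups on the horizontal axis; points are libraries (circles p53WT, triangles p53KO) and black lines are the group means of the log2 values. For each of the 9 genes the 6 libraries of 3dai lie below the other 10, and p53WT replicate 2 is the highest of the libraries without a suffix for the 4 contractile genes.

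The 5 pericyte genes were divided between 3dai and the other libraries in the same way. Rgs5, a regulator of G-protein signalling, lies at chr1:169655501-169695813 and was the most abundant of the 5. It stood at 34.5, 72.9 and 43.1 FPKM in p53WT, 152, 45.9 and 24.3 in p53KO, 104 and 137 in p53WT_G2, and 28.0 and 62.4 in p53KO_G2. The 3dai libraries read 0.216, 3.26 and 1.40 with p53WT and 9.82, 1.08 and 0.262 with p53KO, all below the others, with p53KO_3dai replicate 1 the highest of them. The log2 differences in 3dai were -4.39 (SE 0.73, limma adjusted p = 0.000129) and -4.21 (SE 0.73, limma adjusted p = 0.000186), and the group means differed 30.8-fold and 19.9-fold.

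Pdgfrb, the receptor for PDGF-B, lies at chr18:61045150-61085061. It stood at 6.19, 11.7 and 9.46 FPKM in p53WT, 10.6, 8.26 and 5.50 in p53KO, 11.0 and 16.9 in p53WT_G2, and 7.54 and 11.3 in p53KO_G2. The authors' deposited status is FAIL for its value in p53WT replicate 3 and p53KO replicate 1, and a fit without values of such status ended no call. In 3dai it read 0, 0.473 and 0.673 with p53WT and 1.96, 0.193 and 0.308 with p53KO, again with no overlap, and it fell by 2.87 (SE 0.39, limma adjusted p = 1.93e-05) and by 2.41 (SE 0.39, limma adjusted p = 9.56e-05) on the log2 scale. With a pseudocount of 0.1 these were -4.65 and -3.66.

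Cspg4, which encodes the proteoglycan NG2, lies at chr9:56865033-56899870 and changed least. It stood at 4.07, 6.73 and 5.72 FPKM in p53WT, 6.49, 3.53 and 6.44 in p53KO, 7.90 and 11.7 in p53WT_G2, and 7.05 and 7.65 in p53KO_G2. The 3dai libraries read 1.52, 1.42 and 1.24 with p53WT and 1.34, 0.811 and 0.188 with p53KO. They lay below the rest, but by little: the highest was 1.52 and the lowest of the other 10 was 3.53. The log2 differences were -1.42 (SE 0.32, limma adjusted p = 0.00154) and -1.88 (SE 0.32, limma adjusted p = 0.000150), and 12.4% and 9.12% of all genes tested had a difference at or below these. With a pseudocount of 0.1 they were -1.88 and -2.90.

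Abcc9 and Kcnj8 encode the SUR2 and Kir6.1 subunits of the ATP-sensitive potassium channel of mural cells. They are neighbours on chromosome 6, at chr6:142587862-142702315 and chr6:142564837-142571614, with 16247 bases between them. Abcc9 stood at 3.51, 6.93 and 4.27 FPKM in p53WT, 9.68, 3.02 and 3.36 in p53KO, 8.36 and 8.35 in p53WT_G2, and 1.72 and 4.92 in p53KO_G2. Kcnj8 stood at 8.20, 11.9 and 3.03 in p53WT, 18.7, 5.21 and 2.23 in p53KO, 6.14 and 4.61 in p53WT_G2, and 1.01 and 3.27 in p53KO_G2. In 3dai, Kcnj8 was listed at 0 in all 6 libraries and Abcc9 in 4, with 0.0692 and 0.284 in p53WT_3dai replicates 2 and 3. Both genes fell in 3dai, Abcc9 by 2.37 and 2.52 (SE 0.39, limma adjusted p = 0.000124 and 7e-05 with p53WT and p53KO). Kcnj8 fell by 2.97 and 2.88 (SE 0.55, limma adjusted p = 0.000325 and 0.000419). With a pseudocount of 0.1 these became -4.69 and -5.56 for Abcc9 and -6.08 and -5.94 for Kcnj8, so for genes listed at 0 the fitted value is neither a bound nor a fold. The other pair of such channel subunits, Abcc8 and Kcnj11, known from pancreatic beta cells, did not pass the filter on low values.

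**Figure D3:**
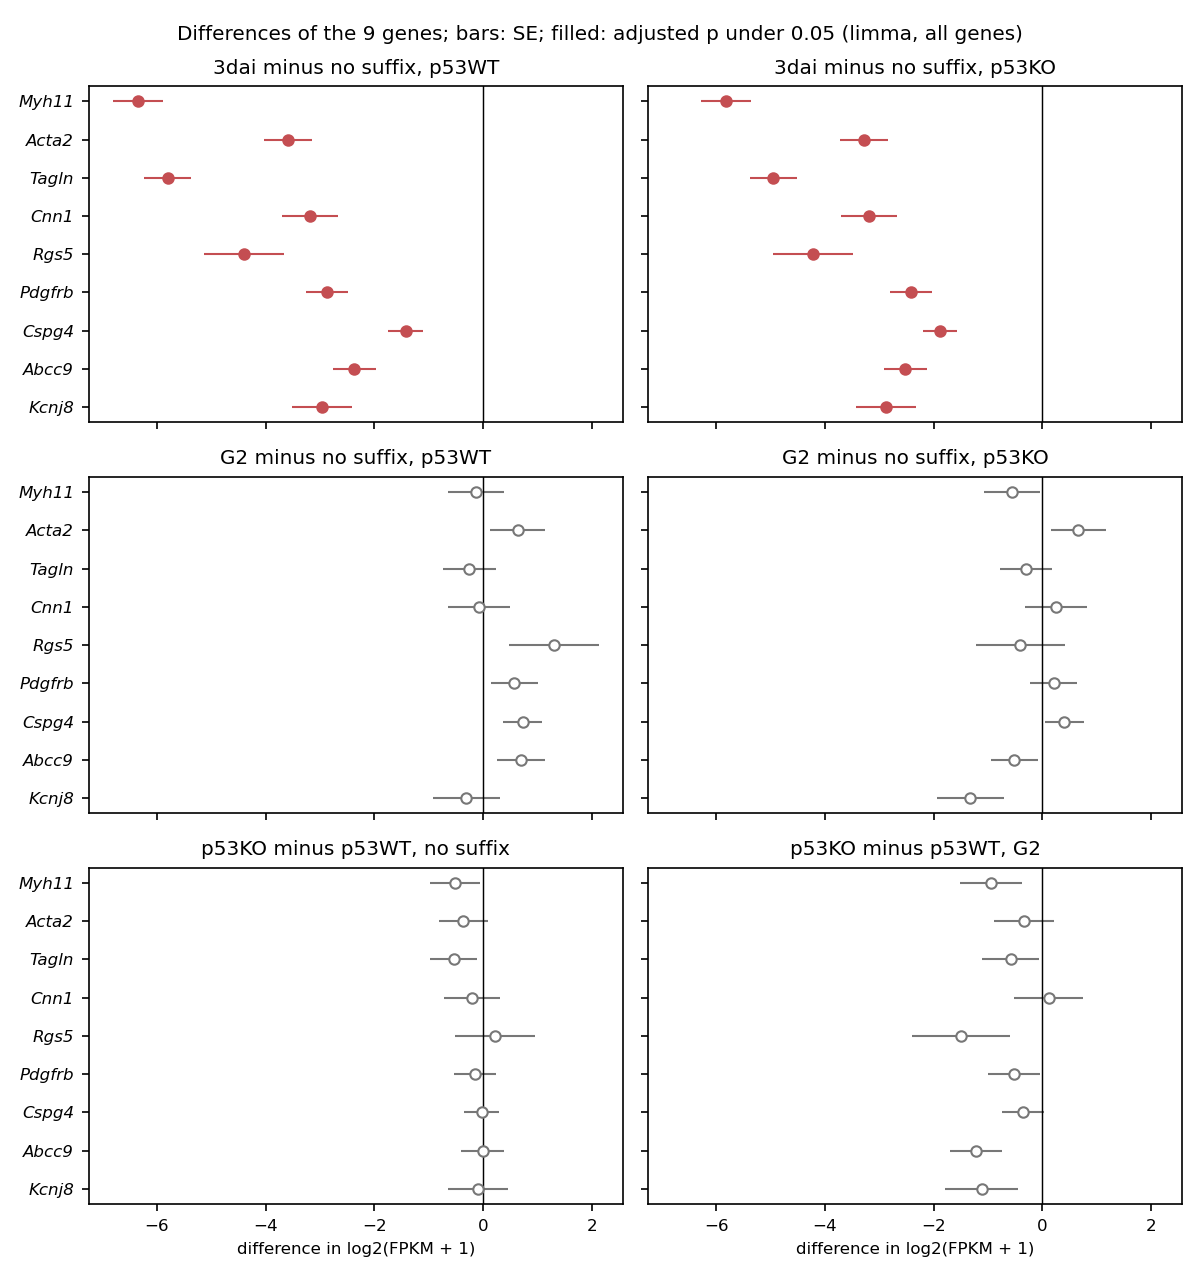
Points give the difference in log2(FPKM + 1) of each of the 9 genes in 6 comparisons, bars the SE, and filled points an adjusted p under 0.05 over all genes tested. Both panels of 3dai against no suffix hold 9 filled points, all below 0, and the G2 and genotype panels hold none.

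Other genes of mural cells moved in the same comparison, where 20.9% of all genes tested were called lower with p53WT and 22.7% with p53KO. The shares called higher were 31.8% and 30.4%. Of 26 other smooth muscle genes tested, 23 fell and 1 rose in 3dai with p53WT (median -2.34), and 18 fell and 1 rose with p53KO (median -2.04). Pcp4l1 went from a mean of 94.9 FPKM in p53WT to 1.28 in p53WT_3dai, and Mylk, the myosin light chain kinase, from 42.6 to 0.278. Tpm1, a tropomyosin, was the gene that rose, from 159 to 543 FPKM with p53WT and from 113 to 601 with p53KO. Of 28 other pericyte genes, 19 fell with p53WT and 22 with p53KO, and 0 rose (medians -2.22 and -1.99). Among them S1pr3, a sphingosine-1-phosphate receptor, had a mean of 104 FPKM in p53WT and 0.312 in p53WT_3dai, and Vtn, vitronectin, 73.8 and 0.308.

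The paralogs of the contractile genes moved in both directions, and 1 of them, Actg2, also stands in the smooth muscle list. Of 12 tested, 4 rose in 3dai in each genotype (Actc1, Myh9, Myh10 and Tagln2), while 3 fell with p53WT (Actg2, Cnn3 and Myh14) and 2 with p53KO (Cnn3 and Myh14). Over all genes tested, 31.8% were called higher with p53WT and 30.4% with p53KO, so the paralogs rose at about the background rate, and their medians of 0.36 and 0.18 were close to those of all genes. Myh9, the non-muscle myosin heavy chain, rose from a mean of 51.1 FPKM to 134 with p53WT and from 51.4 to 148 with p53KO. Actc1 rose from 1.17 to 9.91 and from 2.18 to 8.38. In the regulatory list, Srf itself, named after its values were seen, was not called in 3dai, with means of 38.4 and 21.7 FPKM with p53WT and 62.8 and 31.4 with p53KO. Myocd, myocardin, was listed at 0 in all 6 libraries of 3dai and had means of 1.16 in p53WT and 0.485 in p53KO. It was called lower with p53WT (-1.11, limma adjusted p = 0.00362). Elk4, a ternary complex factor of SRF, fell and Elk3, another, rose in both genotypes. Pdgfb, the ligand of PDGFRB, rose from 1.24 to 10.1 FPKM with p53WT and from 0.671 to 8.26 with p53KO, while no other gene of the PDGF list (Pdgfa, Pdgfc, Pdgfd and Pdgfra) was called.

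Markers of several other cell types also fell in 3dai, where 20.9% of all genes tested were called lower with p53WT and 22.7% with p53KO. The shares called higher were 31.8% and 30.4%, and some of the counts below are near these shares. Schwann cell markers fell in 7 and 6 of 8 genes (p53WT and p53KO), tenocyte markers in 6 and 6 of 7, fibro-adipogenic markers in 5 and 4 of 7 and endothelial markers in 4 and 3 of 8. Their median differences with p53WT and p53KO were -3.71 and -3.57 for Schwann cells, -3.75 and -3.92 for tenocytes, -2.12 and -1.02 for fibro-adipogenic cells and -0.64 and -0.40 for endothelium. Scx in the tenocyte list rose in both genotypes and Egfl7 in the endothelial list with p53WT. Muscle stem cell markers fell too, 5 of 8 in each genotype, namely Calcr, Myf5, Pax7, Sdc4 and Vcam1, while Itga7 rose. The summed level of the 10 endothelial markers ran from 14.6 to 40.3 FPKM in the 10 libraries outside 3dai and from 0.281 to 6.67 in 3dai. There Pecam1, Kdr and Esam were listed at 0 in all 6 libraries. The summed Schwann cell markers ran from 113 to 505 FPKM outside 3dai and from 3.58 to 37.3 within it. Fibro-adipogenic markers summed to 187 to 938 FPKM outside 3dai and 24.3 to 55.2 within it, with Pi16 and Clec3b at 0 in all 6 libraries. Tenocyte markers summed to 224 to 543 and 36.0 to 85.8. Muscle stem cell markers summed to 874 to 2509 and 573 to 659. Myoblast and myocyte markers mostly went the other way. Of 5 myoblast and myocyte markers, 3 rose in each genotype (Myh3, Myog and Tmem8c) and Myod1 fell, with medians of 2.56 and 2.35. Of 7 mature fibre markers 2 fell with p53WT (Ckm and Mb), where Mylpf rose, and 3 fell with p53KO (Ckm, Mb and Pvalb). The medians of this list were -0.78 with p53WT and -0.51 with p53KO. The 2 macrophage markers tested were not called. The part of these cell types in the levels of the 9 genes was not tested.

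**Figure D4:**
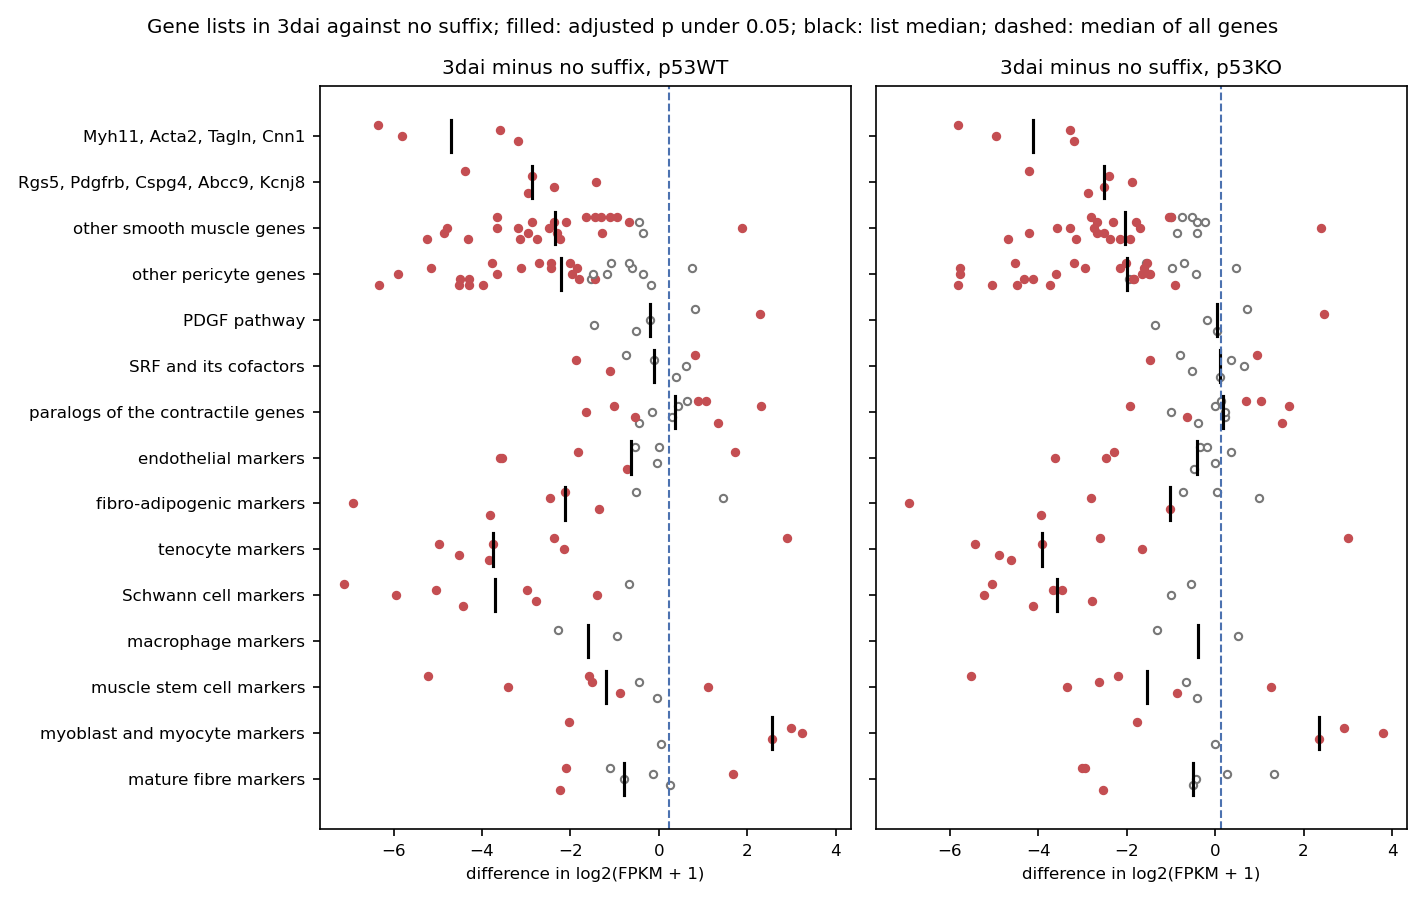
Each point is 1 gene, placed by its difference in log2(FPKM + 1) between 3dai and no suffix in p53WT (left) or p53KO (right), with gene lists as rows; black bars are list medians and the dashed line the median of all genes. The 4 contractile and 5 pericyte genes lie wholly below 0, as do most genes of the Schwann cell and tenocyte lists, while the paralogs lie on both sides.

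Between G2 and no suffix, none of the 9 genes was called, whereas 27.5% of all genes were called in either direction with p53WT and 29.6% with p53KO. This comparison uses the same libraries without a suffix as the one above. The median difference of the 9 was 0.58 with p53WT and -0.30 with p53KO, against 0.33 and 0.31 over all genes. Median-of-ratios scaling moved the medians of all genes by -0.33 and -0.34 and called 0 of the 9. At an unadjusted p under 0.05, 0 of the 9 passed with p53WT and 1, Kcnj8, with p53KO (-1.33, SE 0.62, limma adjusted p = 0.120), where 5046 and 5215 of all 12954 genes did. In p53WT, both G2 libraries lay above all 3 without a suffix for Rgs5, Cspg4 and Abcc9, as for 41% of all genes. Their differences were 1.31 (SE 0.82, limma adjusted p = 0.261), 0.73 (SE 0.36, limma adjusted p = 0.145) and 0.71 (SE 0.44, limma adjusted p = 0.257). In p53KO this held for Acta2 and Cspg4, as for 37.4% of all genes. Acta2 differed by 0.64 (SE 0.50, limma adjusted p = 0.377) with p53WT and by 0.66 (SE 0.50, limma adjusted p = 0.350) with p53KO. Without p53WT replicate 2, Acta2 with p53WT was called higher in G2 by 1.26 (limma adjusted p = 0.0368), so that library decides this call.

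Kcnj8 in p53KO also depended on the setting. It was called lower in G2 under quantile normalization (-1.81, limma adjusted p = 0.0456), with array weights (-1.87, limma adjusted p = 0.0391) and without p53KO replicate 3 (-1.92, limma adjusted p = 0.0242). Myh11 in p53KO was called lower without p53KO_G2 replicate 2 (-1.55, limma adjusted p = 0.0454), and without p53KO_G2 replicate 1 its difference turned to 0.44. The G2 group of p53KO holds these 2 libraries alone, at 23.2 and 95.4 FPKM.

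In the same comparison the striated paralogs of Acta2 rose. Acta1, skeletal alpha-actin, went from a mean of 16.2 FPKM in p53WT to 475 in p53WT_G2 and from 15.9 to 280.1 with p53KO. Actc1 went from 1.17 to 147 and from 2.18 to 139, below the 384 and 307 FPKM of Acta2 in the same groups, whereas Actg1, a cytoplasmic actin, fell. Skeletal muscle markers rose beside them: 4 of 5 myoblast and myocyte markers in each genotype (medians 5.85 and 5.25), with Myog at means of 3.60 FPKM in p53WT and 233 in p53WT_G2. Of 7 mature fibre markers 3 rose with p53WT and 4 with p53KO, with Mylpf at 7.69 and 339 in p53WT and p53WT_G2. Schwann cell markers fell in 5 and 4 of 8 genes (p53WT and p53KO) and fibro-adipogenic markers in 3 and 2 of 7. Tenocyte markers fell in 0 and 4 of 7, while Scx rose in both genotypes. Endothelial markers fell in 1 and 2 of 8, and Cldn5 rose with p53KO. Muscle stem cell markers fell in 4 and 4 of 8, while Itga7 rose in both genotypes and Cdh15 with p53WT. Calls in both directions together covered 27.5% and 29.6% of all genes, which is more than the share of rises or of falls alone. The part of these cells was not tested. Pdgfa, Pdgfb and Pdgfc rose in both genotypes, with Pdgfb at means of 1.24 and 9.20 FPKM in p53WT and p53WT_G2 and 0.671 and 11.7 in p53KO and p53KO_G2. Of the 7 regulators tested, Elk3 rose with p53WT and Srf fell with p53KO. Of the other pericyte genes 1 rose (Angpt1) and 2 fell (S1pr3 and Vtn) with p53WT, and 7 fell with p53KO, among them Vtn and P2ry14. Of the other smooth muscle genes Tpm1 and Tpm2 rose and Hspb1 fell in both genotypes, with Cald1 and Smtn also higher in p53KO.

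Set against 3dai, G2 was higher for all 9 genes with p53WT, where 13.9% of all genes were called higher, and for 8 of 9 with p53KO, where 16.1% were. These comparisons use the same 3dai libraries as those above. Other markers were also called higher in G2: tenocyte markers in 5 and 4 of 7 genes (p53WT and p53KO), Schwann cell markers in 5 and 5 of 8, endothelial markers in 3 and 3 of 8, fibro-adipogenic markers in 2 and 2 of 7, muscle stem cell markers in 4 and 4 of 8, myoblast and myocyte markers in 4 and 3 of 5 and mature fibre markers in 5 and 7 of 7. Their part in the levels of the 9 genes was not tested. The exception was Kcnj8, at 1.01 and 3.27 FPKM in p53KO_G2 against 0 in 3 libraries (1.55, SE 0.62, limma adjusted p = 0.0827). Differences with p53WT ran from 2.16 for Cspg4 to 6.21 for Myh11, and with p53KO from 1.55 for Kcnj8 to 5.27 for Myh11. The median difference of the 9 was 3.44 in either genotype, against 0.09 and 0.12 over all genes. p53KO_3dai replicate 1 was the highest of the 6 libraries of 3dai for 4 of the 9 genes. Without it 8 of 9 were again called with p53KO. With that library alone in its group, and assumed to vary like the other libraries, 5 of 9 were called with p53KO: Rgs5 (1.99, limma adjusted p = 0.222), Pdgfrb (1.79, limma adjusted p = 0.0577) and Abcc9 (2.00, limma adjusted p = 0.0802) then missed the threshold, as Kcnj8 did. Without p53KO_G2 replicate 2 the count was 6.

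None of the 9 genes was called between the genotypes. Without a suffix 0 of 9 were called (0.00772% of all genes were), in 3dai 0 of 9 (0.0849%) and in G2 0 of 9 (0.0695%), with limma in each case. At an unadjusted p under 0.05 the counts were 0, 0 and 1, where 512, 1151 and 631 of the 12954 genes passed. The median differences of the 9 were -0.15, 0 and -0.58, against -0.02 to 0.01 over all genes. With no suffix, p53KO minus p53WT was -0.52 (SE 0.46) for Myh11, -0.37 (SE 0.45) for Acta2 and -0.54 (SE 0.43) for Tagln, each with an adjusted p of 1 by limma. Without p53WT replicate 2 these became -0.02, 0.25 and 0.051. In 3dai the gene nearest to a difference was Cspg4 at -0.48 (SE 0.32, limma adjusted p = 0.726).

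In G2 the p53KO libraries lay below both p53WT libraries for 5 of the 9 genes (Tagln, Rgs5, Cspg4, Abcc9 and Kcnj8), as for 16.1% of all genes. Abcc9 had the lowest unadjusted p of the 9, 0.0227, with a difference of -1.22 (SE 0.48, limma adjusted p = 0.923). Rgs5 differed by -1.49 (SE 0.90), Kcnj8 by -1.11 (SE 0.67) and Tagln by -0.58 (SE 0.53), each with an adjusted p of 1 by limma. With 2 libraries a group, the SE of 0.90 for Rgs5 leaves the size of any such difference loosely set. Without p53KO_G2 replicate 1 the differences were smaller, at -0.66 for Abcc9, -0.93 for Rgs5, -0.57 for Kcnj8 and -0.18 for Tagln. Without p53KO_G2 replicate 2 they were larger, at -1.78, -2.05, -1.66 and -0.98, and none was called in either case. The medians of marker lists in the same comparison were -1.15 for tenocytes, -0.47 for fibro-adipogenic cells, -0.37 for endothelium and -0.24 for Schwann cells. Over all genes the median was -0.01. Of these lists only Cldn5, an endothelial marker, was called, and it was higher in p53KO_G2 (2.22, SE 0.38, limma adjusted p = 0.0452). Its means were 0.421 FPKM in p53WT_G2 and 5.59 in p53KO_G2. The part of these cell types was not tested. The test of whether the genotype difference itself changed called 0 of 9 genes for 3dai (0% of all genes) and 0 of 9 for G2 (0.0232%). The nearest were Abcc9 (-1.22, SE 0.62) and Rgs5 (-1.71, SE 1.16) for G2, again with an adjusted p of 1 by limma. With single libraries left out these ran from -1.78 to -0.66 and from -2.29 to -0.99.

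Single libraries stood apart in these levels. p53WT replicate 2 exceeded the median of the other 5 libraries without a suffix 2.89-fold for Myh11, 3.41-fold for Acta2, 3.58-fold for Tagln and 4.59-fold for Cnn1. For the pericyte genes its ratio ran from 1.18 for Cspg4 to 2.29 for Kcnj8. It was the highest of the 6 for 24 of 26 other smooth muscle genes and 11 of 28 other pericyte genes, against 22.7% of all genes tested. The same held for 4 of 7 fibro-adipogenic, 3 of 8 endothelial, 2 of 5 myoblast and myocyte and 1 of 2 macrophage markers. For Schwann cell and muscle stem cell markers it held for 1 of 8 each, and for tenocyte and mature fibre markers for 0 of 7 each. This library was the lowest for 5 of 8 muscle stem cell markers, against 20.1% of all genes. What these cell types contributed was not tested. p53KO replicate 1 had another make-up, with Rgs5 at 3.52, Abcc9 at 2.76 and Kcnj8 at 3.60 times the median of the other 5 but the contractile genes at 1.02 to 1.37 times. It was the highest of the 6 for 0 of 26 other smooth muscle genes and 7 of 28 other pericyte genes, against 11.8% of all genes. Leaving out both libraries together called Acta2 higher in G2 with p53WT (limma adjusted p = 0.0482) and changed no other count of the 9 genes.

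p53KO_G2 replicate 1 was the lowest of the 4 libraries of G2 for all 9 genes, at 0.206 (Abcc9) to 0.893 (Cspg4) times the median of the other 3. It was also the lowest for 21 of 26 other smooth muscle genes and 20 of 28 other pericyte genes, against 30.3% of all genes. Of the marker lists, it was the lowest for 4 of 5 myoblast and myocyte markers, 4 of 8 muscle stem cell, 4 of 8 Schwann cell, 3 of 7 mature fibre, 3 of 7 tenocyte, 2 of 8 endothelial and 1 of 7 fibro-adipogenic markers. p53KO_3dai replicate 1 held 13.1 FPKM of the summed pericyte genes against 0.758 to 5.22 in the other 5 of 3dai, beside 37.3 FPKM of Schwann cell markers against 3.58 to 11.6. The part of these other cell types was not tested.

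**Figure D5:**
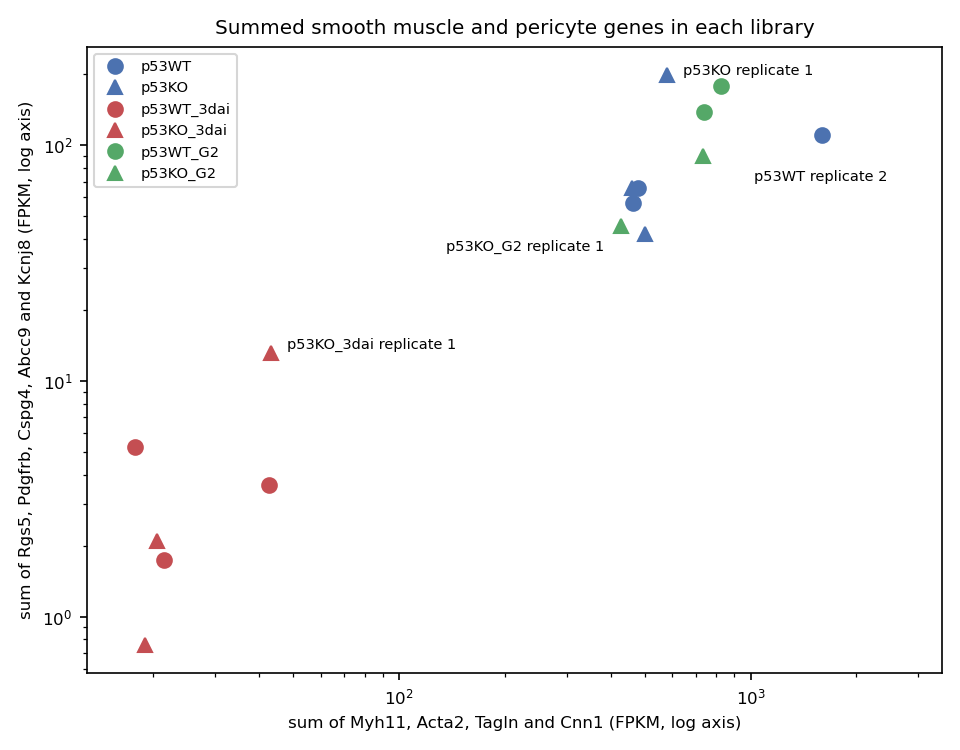
Each point is 1 of the 16 libraries, with the summed FPKM of the 4 contractile genes on the horizontal axis and of the 5 pericyte genes on the vertical axis, both logarithmic. The libraries of 3dai (17.8 to 43.3 and 0.758 to 13.1 FPKM) lie apart at the lower left, p53WT replicate 2 lies farthest right and p53KO replicate 1 highest.

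The order of the groups differed between genes above the floor of 3dai. Mean Myh11 ran from 115 FPKM in p53WT through 92.0 in p53WT_G2 and 70.0 in p53KO to 59.3 in p53KO_G2, and of these neighbours only p53WT_G2 and p53KO did not overlap. Acta2 led in p53WT_G2 (384), followed by p53KO_G2 (307), p53WT (299) and p53KO (191), and Tagln in p53WT (419), followed by p53WT_G2 (294), p53KO (244) and p53KO_G2 (204). Cnn1 was also highest in p53WT (13.8), ahead of p53KO_G2 (10.5), p53WT_G2 (8.99) and p53KO (8.17). For these 3 genes all such neighbours overlapped.

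Rgs5, Pdgfrb, Cspg4 and Abcc9 were highest in p53WT_G2, with means of 121, 14.0, 9.82 and 8.36 FPKM. Rgs5 then ran through p53KO (74.0) and p53WT (50.2) to p53KO_G2 (45.2), and Abcc9 in the same order (5.36, 4.90 and 3.32), while Pdgfrb ran through p53KO_G2 (9.42) and p53WT (9.11) to p53KO (8.11). Neighbours overlapped throughout for these 3. Cspg4 ran from p53WT_G2 through p53KO_G2 (7.35) to p53WT (5.51) and p53KO (5.48), and only the last 2 overlapped. Kcnj8 was the exception, highest in p53KO (8.72), then p53WT (7.71), p53WT_G2 (5.38) and p53KO_G2 (2.14), with no overlap between the last 2.

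Correlations of log2(FPKM + 1) over the 16 libraries describe how alike the genes ran, and are dominated by the step between 3dai and the rest. Over the 10 libraries outside 3dai the values were lower. Within the contractile set r ran from 0.56 (Myh11 and Acta2) to 0.88 (Myh11 and Tagln), with Acta2 and Cnn1 at 0.82. Within the pericyte set it ran from -0.14 (Cspg4 and Kcnj8) to 0.92 (Rgs5 and Abcc9), with Rgs5 and Pdgfrb at 0.85. Pairs across the sets ran from 0.11 (Acta2 and Kcnj8) to 0.72 (Acta2 and Cspg4), so the ranges overlapped. Cspg4 ran with neither Kcnj8 (r = -0.14) nor Myh11 (r = 0.18). The channel partners Abcc9 and Kcnj8 had r = 0.72. These points share libraries, of which p53WT replicate 2 and p53KO replicate 1 lie far out.

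Among 9556 genes with a mean of at least 5 FPKM in 1 group, the gene most like Myh11 over the 16 libraries was Mylk (r = 0.99, and 0.98 over the 10 outside 3dai), followed by Tagln and Sparcl1. Acta2 was most like Itm2a, Tagln and Bcam (r = 0.97 to 0.98), and Tagln most like Myh11, Rasd1 and Ccdc3. Cnn1 was most like Cd36, Myom1 and Entpd1. Rgs5 and Pdgfrb were each other's closest gene (r = 0.98, and 0.85 outside 3dai). Cspg4 was closest to Postn, Mamdc2 and Igf2 at lower values (r = 0.96 to 0.97). Abcc9 and Kcnj8 had Ifi47 and Gja4, a vascular gap junction protein, in common among their 3 closest genes, beside Slc6a17 for Abcc9 and Eln, elastin, for Kcnj8.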

How the data were processed

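RNA of sorted muscle cells was sequenced from 16 directional libraries. The values used are FPKM per gene as deposited, and the submitters' processing notes name STAR, Cufflinks, Cuffdiff and mm10, with no version. FPKM divides by transcript length and library total, so totals and depth are lost. The 9 genes were found by symbol, and the members and lists were chosen with earlier results of these data known. Log2(FPKM + 1) of the 12954 genes with at least 1 FPKM in at least 2 libraries was fitted in limma 3.58.1 (R 4.3.3) over all 6 groups, with a mean-variance trend and Benjamini-Hochberg adjustment over all these genes, at a threshold of 0.05. There were 11 comparisons: genotype within each suffix, suffix within each genotype, and 2 interactions. The script was tested on simulated data. The rule for named genes took the 9, Trp53, Itga7, the 2 largest rises and 2 largest falls called in each list, and the 3 genes most alike each of the 9 by Pearson r. Others were named after their values were seen: further called members of small counts (such as Myh10, Tagln2, Cald1, Smtn, Myf5, Pax7 and Vcam1), markers at 0 in 3dai (Pecam1, Kdr, Pi16 and Clec3b), Srf in 3dai, and Abcc8 and Kcnj11. The alternatives tried used a smaller pseudocount of 0.1, no filter on low values, or a mean of at least 5 FPKM over all 16 libraries. Further alternatives used median-of-ratios and quantile scaling, array weights, the replicate number as a block, only the groups compared, and leaving out each library. A fit without values of status FAIL or LOWDATA, both fits on libraries that stood apart, and the CArG box with a mismatch were added after seeing the data.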

Additional observations from a re-analysis of the deposited data

How the results depend on the processing

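The fall in 3dai held under every alternative in which a gene was tested: 291 of 291 values were called lower. The highest limma adjusted p was 0.0423. Under the filter of a mean of at least 5 FPKM over all libraries, Cspg4, Abcc9 and Kcnj8 were not tested. Leaving aside genes not tested under that filter, counts called among the 9 moved in 4 comparisons. In G2 against no suffix with p53WT the count was 0 to 1 when single libraries were left out and 1 (Acta2) without p53WT replicate 2 and p53KO replicate 1 together. With p53KO it was 0 to 1 when single libraries were left out, 1 with quantile normalization and 1 with array weights. In G2 against 3dai with p53KO it was 6 to 8 against 8, and 5 with p53KO_3dai replicate 1 alone in its group. With p53WT it was 8 to 9, since Kcnj8 (2.49, limma adjusted p = 0.0656) was lost without p53WT_G2 replicate 1. With p53KO, Kcnj8 was called with a pseudocount of 0.1 (4.27, limma adjusted p = 0.00311), Rgs5 was lost with only the groups compared (3.81, limma adjusted p = 0.0921), and Rgs5 (3.25, 0.0605) and Abcc9 (1.44, 0.0830) were lost without p53KO_G2 replicate 2. The cause was not tested.

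Uncalled genotype differences changed sign: with no suffix, Acta2 was 0.22 without p53WT replicate 2 and p53KO replicate 1 together. With single libraries left out, Acta2 ran from -0.71 to 0.25 and Tagln from -0.87 to 0.051, and in G2 Myh11 ran from -1.94 to 0.054 and Cnn1 from -0.40 to 0.63. Myh11 in G2 against no suffix with p53KO ran from -1.55 to 0.44. Of 41 further uncalled differences not given here, 102 of 723 alternative values had the other sign and 0 were called.

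Counts over all genes, the background here, moved more. Between genotypes with no suffix the count of 1 became 5 with a pseudocount of 0.1, 3 with no filter, 2 with array weights and 0 with only the groups compared. In 3dai 11 became 17 with a pseudocount of 0.1, 804 with array weights, 1 with only the groups compared, 3 with p53KO_3dai replicate 1 alone, and 2 to 512 when single libraries were left out (512 without p53KO_3dai replicate 1). In G2 9 became 22 with no filter, 4 with a mean of at least 5 FPKM, 5 with array weights, 0 with only the groups compared and 3 to 6 without single libraries. For 3dai against no suffix with p53KO, 6883 became 4545 with p53KO_3dai replicate 1 alone. For G2 against no suffix, 3566 with p53WT became 1826 to 3199 without single libraries, and 3830 with p53KO became 2095 to 3702, and 2112 with only the groups compared. For G2 against 3dai, 2673 with p53WT became 4107 with array weights and 1242 to 2155 without single libraries. There 3004 with p53KO became 1402 with only the groups compared, 787 with p53KO_3dai replicate 1 alone and 1534 to 3323 without single libraries. The interaction with 3dai went from 0 to 1 with a pseudocount of 0.1, no filter or array weights and to 0 to 146 without single libraries. The interaction with G2 went from 3 to 5, 10, 1 and 5 with a pseudocount of 0.1, no filter, a mean of at least 5 FPKM and only the groups compared, and to 1 to 3 without single libraries.

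Replicate numbers did not pair the libraries: of 36 same-numbered pairs, 1 had a correlation of deviations over 0.1 and 2 had one under -0.1 (range -0.16 to 0.13). With the replicate number as a block no count of the 9 genes changed, while the counts over all genes between genotypes went from 11 to 7 in 3dai and from 9 to 5 in G2. With 2 or 3 libraries a group and no read totals, small differences in genes below a few FPKM cannot be separated from counting error.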
